A study of Homo sapiens with 3 samples.

Results

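AP-1 is a transcription factor made of pairs of proteins with a basic leucine zipper, a DNA-binding and pairing domain, and the genes described here are 10 of the 21726 genes in the deposited table. They were taken by name as JUN, JUNB, JUND, FOS, FOSB, FOSL1 and FOSL2, the AP-1 genes proper, with EGR1, IER2 and IER3, which are immediate early genes. The JUN proteins pair with one another or with FOS proteins, whereas FOS proteins need a JUN partner to bind DNA well. Immediate early genes are switched on within minutes of a stimulus such as serum, growth factors or stress, without the need for new protein, and most return to a low level soon after. FOSL1 (FRA-1) and FOSL2 (FRA-2) are the slower and more lasting FOS proteins, and FOSL1 is often high in invasive carcinoma cells.

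RNA sequencing was used on 3 lines of PC3-Luc, a human prostate adenocarcinoma cell line that carries luciferase from an MSCV vector, with 3 libraries per line. The control line carried a control hairpin, and the other lines carried 1 of 2 short hairpins against CTHRC1, a secreted glycoprotein, named sh718 and sh720. All cells had been plated for 24 h before RNA was taken, and no stimulus or change of medium is named. Each hairpin is represented by 1 line. The labels tell neither whether a line is 1 clone nor whether its 3 libraries are separate cultures. A p-value here therefore reflects library-to-library spread alone, and that spread may be technical.

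Library totals ran from 883663 to 1108960 counts. Levels are given in CPM, counts scaled to a library of 1000000. CTHRC1 stood at 115.9 ± 16.4 CPM in the control libraries (SD, n = 3), 1.81 ± 0.672 in those of sh718 and 16.0 ± 5.48 in those of sh720. KRT18, KRT19 and VIM, expressed in carcinoma cells of this kind, had 5944, 7611 and 22409 counts over the 9 libraries, KRT7 had 2594, KRT8 1934 and EPCAM 268. CDH1 had 15 counts. Of these 7 line markers 6 were tested, with 1 higher and 2 lower in sh718 and 4 higher in sh720. Of all tested genes, 9.56% were higher and 10.8% lower in sh718, and 3.43% were higher in sh720. KRT7 was at 312.1 ± 13.2 CPM in control, 51.9 ± 10.7 in sh718 and 526.3 ± 40.7 in sh720 (edgeR log2 -2.57 for sh718, adjusted p 7.42e-28, and 0.75 for sh720, adjusted p 1.62e-10). EPCAM was at 37.8 ± 7.35, 14.4 ± 1.41 and 40.4 ± 6.58 CPM (log2 -1.39 for sh718, adjusted p 2.41e-05). KLK2, KLK3 and FOLH1, genes of androgen-responsive prostate cells, were not listed. The leukocyte markers PTPRC and CD14 had 6 and 4 counts. The endothelial marker PECAM1 had 266 counts and was higher in sh718 (log2 1.03, edgeR adjusted p 2.63e-04). Of the other endothelial markers, KDR had 39 counts, CLDN5 had 1, and VWF and CDH5 were not listed. The neuronal enolase gene ENO2 was higher in sh718 (log2 0.88, edgeR adjusted p 4.51e-05). It was also higher in sh720 (log2 0.54, adjusted p 0.0477), a call lost under 7 of 17 alternative fits (adjusted p 0.0689 to 0.259). The neuroendocrine markers CHGB, SYP and NCAM1 had 2 counts each, and CHGA was not listed. The part of these marker differences in the results below was not tested. In these bulk samples, fewer cells expressing a gene and less RNA per cell cannot be told apart.

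Promoters of 4 of the genes are printed because they hold, or lack, matches to elements for which immediate early genes are known. Each runs from 250 bases before to 50 bases after the RefSeq transcription start in GRCh38.p14. JUN is at chr1:58783998-58784297 on the minus strand and IER2 at chr19:13150161-13150460 on the plus strand, the genes that rose in sh718. JUND is at chr19:18281573-18281872 on the minus strand and EGR1 at chr5:138465229-138465528 on the plus strand, the first called in no comparison and the second near 0 counts. Capitals mark the matches of 4 motifs, searched on both strands with no overlaps found: the AP-1 site TGAGTCA, the cyclic AMP element TGACGTCA, the variant AP-1 site TGACATCA and the CArG box, to which serum response factor binds.
JUN: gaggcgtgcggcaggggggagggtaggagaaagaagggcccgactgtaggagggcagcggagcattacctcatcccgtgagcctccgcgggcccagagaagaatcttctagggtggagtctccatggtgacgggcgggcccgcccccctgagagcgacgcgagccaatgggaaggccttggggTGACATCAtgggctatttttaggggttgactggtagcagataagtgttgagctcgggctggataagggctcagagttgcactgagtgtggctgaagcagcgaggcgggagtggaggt
IER2: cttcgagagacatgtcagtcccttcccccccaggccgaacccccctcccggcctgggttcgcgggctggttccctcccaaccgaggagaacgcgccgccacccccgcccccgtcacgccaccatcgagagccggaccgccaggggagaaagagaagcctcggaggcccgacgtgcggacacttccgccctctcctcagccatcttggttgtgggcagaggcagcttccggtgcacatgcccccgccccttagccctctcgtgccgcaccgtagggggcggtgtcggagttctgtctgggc
JUND: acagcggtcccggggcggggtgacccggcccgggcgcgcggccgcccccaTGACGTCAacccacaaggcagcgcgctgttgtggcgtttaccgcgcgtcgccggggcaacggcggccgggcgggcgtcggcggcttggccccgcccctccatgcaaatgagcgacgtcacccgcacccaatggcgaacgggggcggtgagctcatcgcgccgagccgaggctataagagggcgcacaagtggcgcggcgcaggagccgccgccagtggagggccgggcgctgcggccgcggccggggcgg
EGR1: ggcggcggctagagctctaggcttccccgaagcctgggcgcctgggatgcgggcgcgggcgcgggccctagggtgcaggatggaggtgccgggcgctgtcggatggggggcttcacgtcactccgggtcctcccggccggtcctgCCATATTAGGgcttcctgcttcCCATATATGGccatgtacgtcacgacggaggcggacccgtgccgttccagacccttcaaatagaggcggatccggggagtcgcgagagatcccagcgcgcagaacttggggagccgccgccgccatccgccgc

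The JUN promoter held 1 TGACATCA, 67 bases before the start, and 2.61% of the 35116 RefSeq promoters of this length held that motif. The JUND promoter held TGACGTCA 200 bases before its start, a motif found in 1.85% of the promoters. The EGR1 promoter held 2 CArG boxes, at 105 and 83 bases before the start, and 1.29% of the promoters held at least 1. In FOSL2 the AP-1 site stood as TGACTCA from base 5 after the start, and 4.95% of the promoters held it on either strand. No promoter was available for FOSL1 and IER3, so neither was searched. No match to any of the 4 motifs was found in the windows of IER2, JUNB, FOS and FOSB. Sequence outside the windows and near matches to the motifs were not searched, so these genes may still hold such elements. The zinc finger site to which EGR1 binds, GCGGGGGCG, was in 5.07% of the promoters and in none of these 8.

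Within the 10 genes, JUN and IER2 were the ones that rose in sh718, and neither was called in sh720 against control. Of the 10, 7 reached the 60 counts over all libraries that a test needed, and FOS, FOSB and EGR1 did not. In sh718 against control, 2 of the 7 were called higher and 0 lower at an edgeR adjusted p under 0.05, while 20.4% of all 9556 tested genes were called (9.56% higher, 10.8% lower). In sh720 against control, edgeR called 0 of the 7, where 6.85% of all tested genes were called (3.43% higher, 3.42% lower). There 1 of the 7, IER2, had an unadjusted p under 0.05, and DESeq2 called 0. In sh718 against sh720, 2 of the 7 were called, both higher, beside 25.3% of all tested genes (12.3% higher, 13.0% lower). The comparisons share libraries, so they are not independent of each other.

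JUN encodes c-Jun, the AP-1 subunit that gave the family its name. The gene (ENSG00000177606, GRCh38 chromosome 1, 58780788 to 58784327, minus strand) is a single exon block. Its 3 control libraries held 103.6, 92.5 and 98.1 CPM. The sh718 libraries held 239.2, 206.6 and 199.2 CPM, and the sh720 libraries 96.6, 114.4 and 117.3. Every sh718 library lay above every other library, while the control and sh720 libraries overlapped. The means were 98.0 ± 5.56 CPM in control, 215.0 ± 21.3 in sh718 and 109.4 ± 11.2 in sh720 (SD, n = 3). JUN was 2.19-fold higher in sh718 than in control (95% interval 1.86 to 2.57, log2 1.13, SE 0.12, edgeR adjusted p 5.68e-12). In sh720 the log2 difference from control was 0.16 (SE 0.13, 95% interval -0.10 to 0.42, adjusted p 0.560). JUN was 1.96-fold higher in sh718 than in sh720 (95% interval 1.67 to 2.29, log2 0.97, SE 0.11, adjusted p 2.39e-10).

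IER2 encodes a short-lived nuclear protein whose gene responds to serum. The gene (ENSG00000160888, chromosome 19, 13150415 to 13154908, plus strand) shares 946 exonic bases with the antisense gene AC011446.2, which had 0 counts. The control libraries held 314.2, 366.5 and 322.0 CPM. The sh718 libraries held 511.4, 506.8 and 486.4 CPM, all above the control libraries, and the sh720 libraries held 269.2, 284.9 and 307.4, all below them. The means were 334.2 ± 28.2 CPM in control, 501.6 ± 13.3 in sh718 and 287.1 ± 19.2 in sh720. IER2 was 1.50-fold higher in sh718 than in control (95% interval 1.34 to 1.68, log2 0.59, SE 0.08, edgeR adjusted p 3.49e-08). In sh720 the log2 difference from control was -0.22 (SE 0.09, 95% interval -0.39 to -0.05), with an unadjusted p of 0.0140 and an adjusted p of 0.126, so it was not called. IER2 was 1.74-fold higher in sh718 than in sh720 (log2 0.80, SE 0.08, adjusted p 2.06e-12).

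Heat shock genes, whose transcripts respond to handling and stress, were mostly higher in sh718, where JUN and IER2 were also higher. They were mostly lower in sh720, where JUN and IER2 were not called. Their 12 transcripts summed to between 11506.2 and 11969.2 CPM in the sh718 libraries, 8748.5 to 9548.8 in control and 7179.4 to 7533.5 in sh720. Of the 12, 8 were higher in sh718 than control and 0 lower (median log2 0.35), beside 9.56% and 10.8% of all tested genes. In sh720 against control 8 were lower and 0 higher (median log2 -0.29), beside 3.42% and 3.43%. DESeq2 called 6 higher in sh718 and 4 lower in sh720. All tested genes had medians within 0.01 of 0 in every comparison. The co-chaperone gene DNAJB1 was at 104.6 ± 22.1 CPM in control, 198.0 ± 11.1 in sh718 and 92.0 ± 1.87 in sh720. The constitutive chaperone gene HSPA8 was at 402.1 ± 37.2, 542.3 ± 32.9 and 260.5 ± 17.8 CPM. HSP90AA1, which weighs most in the sums, was at 4646.3 ± 190.7, 5935.8 ± 60.6 and 3615.0 ± 129.6 CPM. HSPA1B went the other way in sh718, at 35.9 ± 7.75, 24.5 ± 4.83 and 19.4 ± 5.85 CPM. It was not called there (log2 -0.56, edgeR adjusted p 0.0892). Of the others not called in sh718, HSPE1 was at log2 0.23, BAG3 at -0.08 and HSPD1 at -0.13. In sh720, where the heat shock sum was lowest, the mean of JUN was 109.4 CPM and that of IER2 287.1. In control they were 98.0 and 334.2 CPM. The part of handling or stress in the JUN and IER2 values was not tested.

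**Figure D1:**
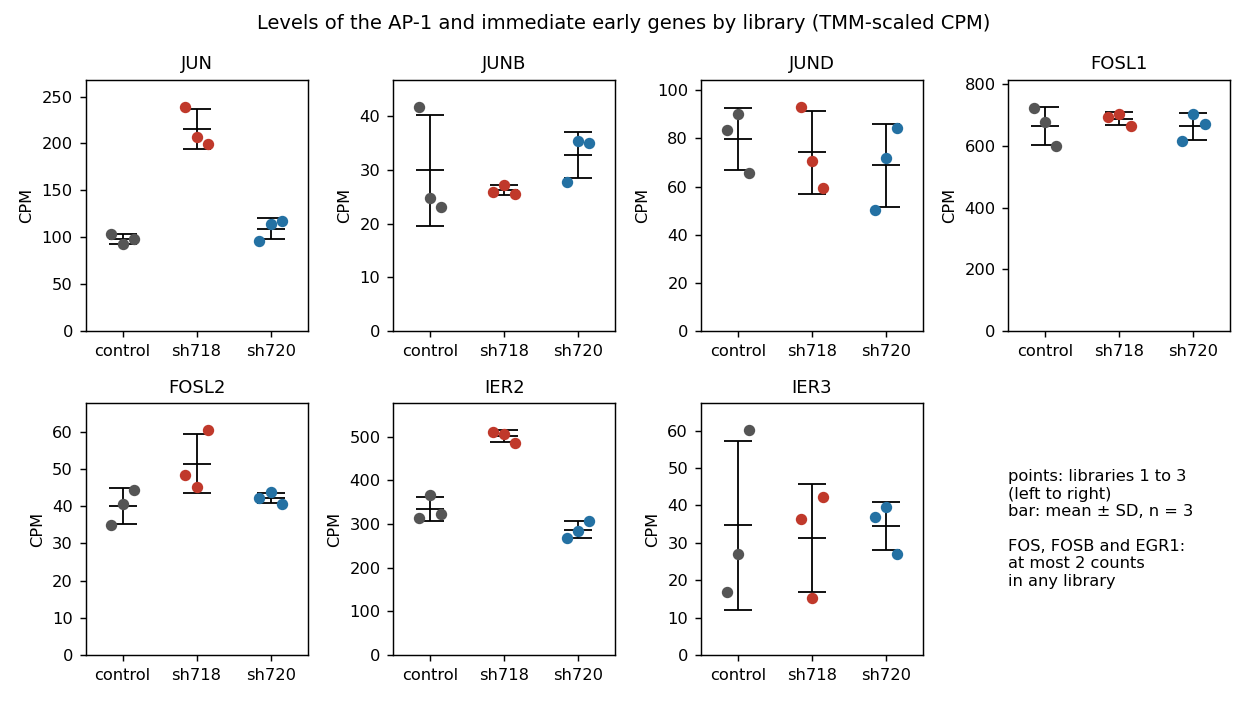
Level of each of the 7 tested genes in CPM on the vertical axis by line, with 1 point per library and the mean ± SD of 3 libraries. The sh718 libraries of JUN, between 199.2 and 239.2 CPM, and of IER2, between 486.4 and 511.4 CPM, lie above all other libraries, and the FOSL1 libraries overlap across the lines.

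**Figure D2:**
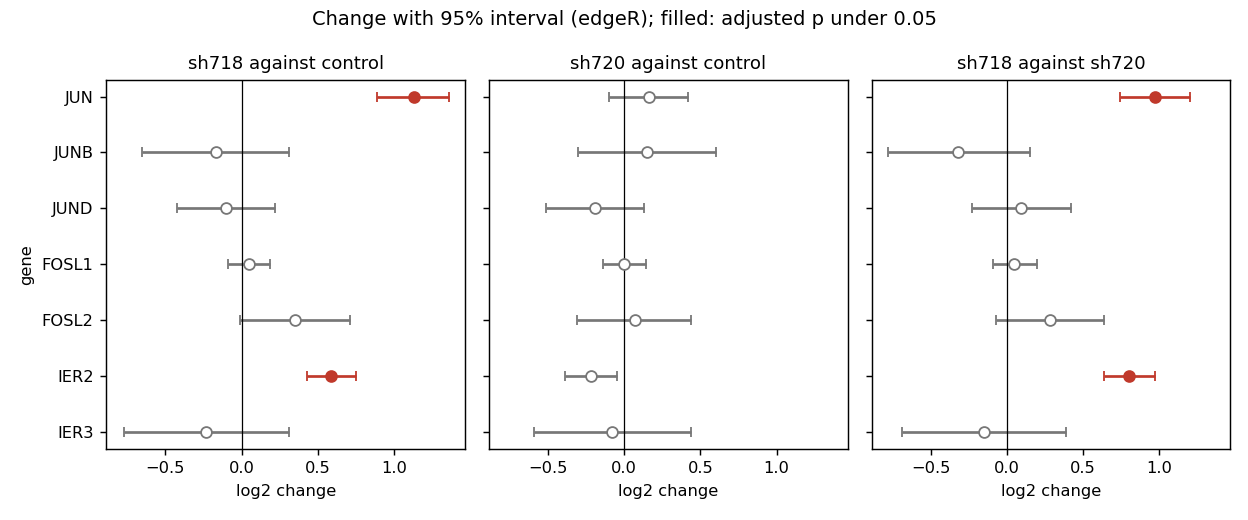
Difference of each tested gene on the log2 scale, with its 95% interval, in the 3 comparisons between lines. Filled points, JUN and IER2 in the comparisons with sh718, were called at an edgeR adjusted p under 0.05, and open points were not.

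JUNB and JUND, the other JUN genes, were called in no comparison. JunB often acts against c-Jun, and JunD is usually the most evenly expressed of the family. JUNB (ENSG00000171223, chromosome 19, 12791496 to 12793315, plus strand) held 41.7, 24.8 and 23.1 CPM in control, 25.9, 27.2 and 25.4 in sh718, and 27.7, 35.4 and 34.9 in sh720. Control library 1 was the highest of the 9, and the sh718 and sh720 libraries did not overlap. The log2 difference was -0.17 in sh718 against control (95% interval -0.65 to 0.31, edgeR adjusted p 0.682), 0.15 in sh720 against control (-0.30 to 0.60, adjusted p 0.791) and -0.32 in sh718 against sh720 (-0.78 to 0.15, adjusted p 0.347). JUNB shares 259 exonic bases with HOOK2 on the opposite strand, which had 90 counts in all, and reads there cannot be assigned to one gene without a stated strand setting.

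JUND (ENSG00000130522, chromosome 19, 18279760 to 18281622, minus strand) held 83.3, 90.2 and 65.7 CPM in control. It held 93.1, 70.5 and 59.3 CPM in sh718 and 50.3, 71.7 and 84.4 in sh720, so the 3 lines overlapped. The log2 difference from control was -0.10 in sh718 (95% interval -0.42 to 0.22, edgeR adjusted p 0.722) and -0.19 in sh720 (-0.51 to 0.13, adjusted p 0.570). Against sh720, sh718 differed by 0.09 (-0.23 to 0.42, adjusted p 0.732).

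FOSL1 was by far the most abundant of the FOS genes. The gene (ENSG00000175592, chromosome 11, 65892049 to 65900573, minus strand) held 721.8, 676.6 and 600.4 CPM in control. It held 695.3, 705.3 and 665.6 CPM in sh718 and 617.5, 702.9 and 671.9 in sh720. All 3 lines overlapped, with means of 666.3 ± 61.3, 688.7 ± 20.7 and 664.1 ± 43.2 CPM. The log2 difference was 0.05 in sh718 against control (95% interval -0.09 to 0.19) and -0.00 in sh720 (-0.14 to 0.14). With edgeR adjusted p of 0.674 and 0.995 neither was called, and the intervals leave room for folds of 0.938 to 1.14 and of 0.905 to 1.10.

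FOSL2 (ENSG00000075426, chromosome 2, 28392448 to 28417312, plus strand) held 34.9, 40.6 and 44.4 CPM in control, 48.3, 45.3 and 60.4 in sh718, and 42.1, 43.7 and 40.7 in sh720. Every sh718 library was above every control and sh720 library. The log2 difference of sh718 from control was 0.35 (SE 0.18, 95% interval -0.01 to 0.71) and was not called (edgeR adjusted p 0.175). Against sh720 it was 0.28 (-0.07 to 0.64, adjusted p 0.256), and sh720 differed from control by 0.07 (-0.31 to 0.44, adjusted p 0.898). Lack of overlap between libraries was met by 3 of the 7 genes in sh718 against control (JUN, FOSL2 and IER2), beside 33.5% of all tested genes (16.3% higher, 17.1% lower). It was met by 1 of the 7 in sh720 against control (IER2, lower), beside 23.5% (11.6% higher, 11.9% lower), and by 4 of the 7 in sh718 against sh720 (JUN, FOSL2, IER2 and, lower, JUNB), beside 37.0% (18.2% higher, 18.8% lower).

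FOS, FOSB and EGR1, the classic markers of fresh stimulation, were at or near 0 in all lines. FOS (ENSG00000170345, chromosome 14, 75278774 to 75282230, plus strand), which encodes c-Fos, had 0 counts in each control library, 1, 2 and 0 in sh718, and 1, 2 and 1 in sh720. Summed per line these are 0, 3 and 4 counts. Their exact 95% Poisson intervals, 0 to 3.69 in control, 0.619 to 8.77 in sh718 and 1.09 to 10.2 in sh720, overlap and cover counting error only. FOSB (ENSG00000125740, chromosome 19, 45467995 to 45475179, plus strand) had 0, 1 and 0 counts in control, 2, 0 and 1 in sh718, and 0 in each sh720 library. EGR1 (ENSG00000120738, chromosome 5, 138465490 to 138469315, plus strand), a zinc finger factor, had 1 count, in sh720 library 1, and 0 in the other 8 libraries. A count of 0 over a line leaves room for up to 3.69 counts by the exact 95% interval. A level of 3 counts is 1.03 CPM in control, 1.04 in sh718 and 1.02 in sh720, and a difference below that level was not detectable at this depth. The FOS difference between control and sh720, 0 against 4 counts, lies above that level, but the intervals overlap and it was not tested.

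IER3 encodes a protein linked to cell survival, and its gene (ENSG00000137331, chromosome 6, 30743199 to 30744554, minus strand) varied more between libraries of a line than between lines. It held 16.9, 27.1 and 60.1 CPM in control, 36.5, 15.1 and 42.4 in sh718, and 37.0, 39.5 and 27.1 in sh720. Control library 3 was the highest and sh718 library 2 the lowest. The coefficient of variation was 65.2% in control and 45.8% in sh718, where the counts alone would give 17.0% and 18.7%, and 18.9% in sh720, where they would give 17.1%. The log2 difference from control was -0.23 in sh718 (95% interval -0.77 to 0.31, edgeR adjusted p 0.604) and -0.08 in sh720 (-0.59 to 0.44, adjusted p 0.924). Without control library 3 these became 0.49 and 0.64, and neither was called. sh718 differed from sh720 by -0.15 (-0.69 to 0.39, adjusted p 0.740). In each line the library with the lowest IER3 level also had the lowest share of the mitochondrial ribosomal RNAs MT-RNR1 and MT-RNR2, at 5.36% in control library 1, 5.18% in sh718 library 2 and 4.71% in sh720 library 3, where the other libraries held 5.70% to 8.17%. That pattern was seen after the values were examined, and its part in the IER3 values was not tested.

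**Figure D3:**
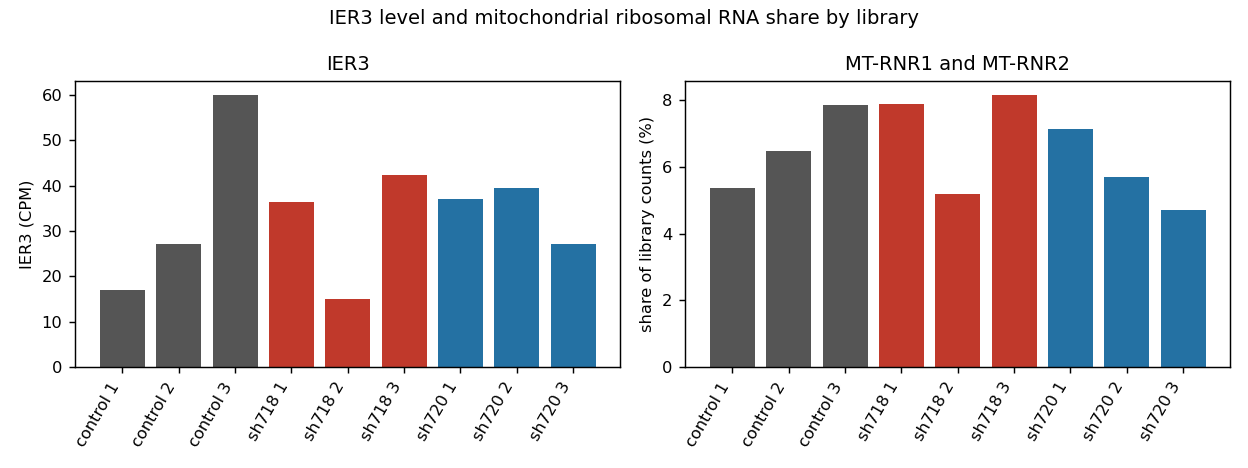
IER3 level in CPM (left) and the share of library counts in MT-RNR1 and MT-RNR2 in percent (right), with 1 bar per library. Control library 3 has the highest IER3 level, 60.1 CPM, and sh718 library 2 the lowest, 15.1 CPM, and in each line the lowest bar of both panels belongs to the same library.

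Levels of different genes were set side by side per kilobase of exon. In control the order was FOSL1 at 353.1 ± 32.5 CPM per kb, IER2 at 108.8 ± 9.19, JUND at 42.8 ± 6.79, JUN at 27.7 ± 1.57, IER3 at 25.6 ± 16.7, JUNB at 16.4 ± 5.63 and FOSL2 at 5.58 ± 0.668. The libraries of JUN and IER3 overlapped, as did those of IER3 and JUNB, and the other neighbours did not. In sh718 the level of JUN, 60.7 ± 6.01 CPM per kb, stood above that of JUND, 39.9 ± 9.23, with no overlap between their libraries. In sh720 JUND at 36.9 ± 9.23 and JUN at 30.9 ± 3.17 CPM per kb overlapped, as did JUN and IER3 at 25.5 ± 4.82.

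JUN took a larger share of the JUN family in every sh718 library than in any other library, and FOSL1 took nearly all of the FOS family in all 9. JUN made up 30.2%, 29.6% and 36.6% of the summed JUN, JUNB and JUND level per kb in the control libraries. Its share was 51.3%, 52.5% and 55.1% in the sh718 libraries and 39.2%, 35.8% and 34.0% in the sh720 libraries. JUND held 49.2 ± 4.91% in control, 34.4 ± 3.36% in sh718 and 42.7 ± 3.75% in sh720, and JUNB 18.6 ± 4.35%, 12.6 ± 1.59% and 21.0 ± 1.17%. The family sum was 86.9 ± 10.7 CPM per kb in control, 115.0 ± 15.2 in sh718 and 85.8 ± 14.6 in sh720. FOSL1 held 98.4 ± 0.300% of the FOS family level in control, 97.9 ± 0.306% in sh718 and 98.2 ± 0.100% in sh720, and FOSL2 most of the remainder. These shares restate the levels above and were not tested.

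**Figure D4:**
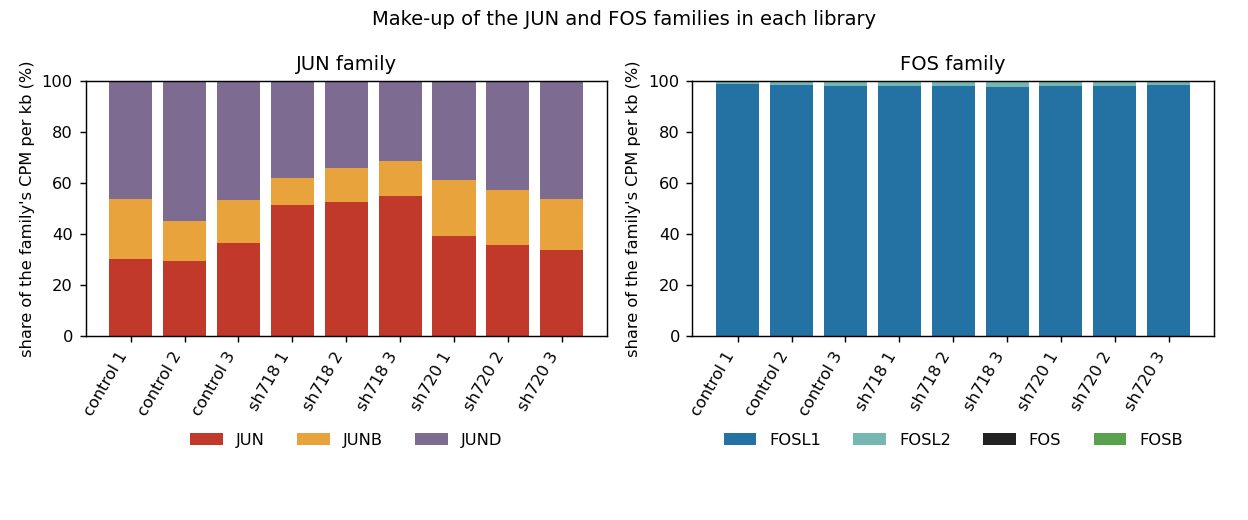
Share of each gene in the summed level per kb of the JUN family (left) and the FOS family (right), in percent, with 1 bar per library. JUN takes 51.3% to 55.1% of its family in sh718 and 29.6% to 39.2% in the other lines, and FOSL1 fills nearly the whole FOS bar in all 9 libraries.

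The genes most like JUN across the 9 libraries, by Pearson's r of log2 CPM, were SLC35A4 (r = 0.986), PRAME (0.986) and EMP1 (0.978). Those most like IER2 were NSFL1C (0.993), ADAM19 (0.988) and FBN2 (0.988). All 9 points share the 3 lines, so a gene that differs in sh718 alone has a high r by that fact. EMP1, which encodes an epithelial membrane protein, was at 91.2 CPM in control, 162.0 in sh718 and 97.2 in sh720. ADAM19, which encodes a membrane metalloprotease, was at 101.2, 203.3 and 74.9 CPM, an order between the lines like that of IER2.

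The partners of AP-1 and related zipper factors were read against all tested genes, of which 20.4% were called in sh718 against control, 6.85% in sh720 against control and 25.3% in sh718 against sh720. Of 13 partners tested, 2 were higher and 0 lower in sh718 (median log2 0.04). In sh720 edgeR called 0 (median 0.00), 1 had an unadjusted p under 0.05, and DESeq2 called 0. In sh718 against sh720, 3 were higher and 1 lower by edgeR (median -0.05), where DESeq2 called 0 higher and 1 lower. The stress factor genes ATF6 and ATF5 were both at 0.46 on the log2 scale in sh718 (edgeR adjusted p 0.0122 and 0.00998). DESeq2 called neither, ATF6 was not called without control library 1 or sh718 library 3 (adjusted p 0.0853 to 0.154 where lost), and ATF5 was not called without sh718 library 3 (adjusted p 0.0514 to 0.0888). ATF3, a stress-induced gene that was looked at after its values were seen, was at 25.6 ± 1.23 CPM in control, 21.4 ± 2.67 in sh718 and 23.6 ± 3.56 in sh720 and was not called.

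Of 25 other immediate early genes tested, 4 were higher and 3 lower in sh718 (median log2 0.05), beside 9.56% and 10.8% of all tested genes. In sh720 1 was higher and 1 lower (median -0.03), beside 3.43% and 3.42%. In sh718 against sh720, 9 were higher and 5 lower (median 0.26), beside 12.3% and 13.0%, where DESeq2 called 4 higher and 3 lower. The growth arrest gene GADD45B went from 65.5 ± 6.12 CPM in control to 97.4 ± 10.1 in sh718 (log2 0.58, edgeR adjusted p 0.00145) and was at 67.8 ± 3.80 in sh720. The zinc finger gene KLF6 went from 82.8 ± 8.74 to 117.3 ± 9.10 CPM in sh718 (log2 0.50, adjusted p 0.00280) and was at 70.5 ± 4.08 in sh720. DUSP1, which encodes a phosphatase that switches off MAP kinases, was at 5.91 ± 1.22 CPM in control and 15.3 ± 5.15 in sh718 (log2 1.36, adjusted p 0.00793), a call lost with DESeq2 and without sh718 library 2 (adjusted p 0.0874 to 0.113). The calls of KLF4 (-0.83), SPRY4 (-0.67) and HES1 (-0.52), the 3 lower genes in sh718, were each lost with DESeq2. They were also lost without control library 3 or sh718 library 1 for KLF4 (adjusted p 0.0638 to 0.0800), without sh718 library 2 for SPRY4 (0.0887 to 0.114), and without control library 3 or sh718 library 3 for HES1 (0.0643 to 0.115). In sh720 the gene higher was GADD45A, from 106.0 ± 13.7 to 159.9 ± 5.80 CPM (log2 0.58, adjusted p 4.36e-04).

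Of 29 kinases and regulators upstream of AP-1 tested, 2 were higher and 4 lower in sh718 (median log2 -0.03), beside 9.56% and 10.8% of all tested genes. In sh718 against sh720, 4 were higher and 6 lower (median -0.03), beside 12.3% and 13.0%. DESeq2 called 2 higher and 3 lower there, and 1 higher and 2 lower in sh718 against control. In sh720 against control edgeR called 0 (median 0.01), beside 6.85%, 3 had an unadjusted p under 0.05 and DESeq2 called 0. MAP2K2, the gene of the MAP kinase kinase MEK2, was at 168.0 ± 17.0 CPM in control and 223.1 ± 22.7 in sh718 (log2 0.41, edgeR adjusted p 0.00260). MAP2K1, the gene of MEK1, was at 73.6 ± 19.8 and 46.2 ± 7.71 CPM (log2 -0.67, adjusted p 0.00263), and without control library 2 it was at -0.47 and not called (adjusted p 0.0722, against 2.65e-04 at the lowest over the alternatives). ELK4, a partner of serum response factor at CArG boxes, fell from 50.4 ± 8.57 to 26.6 ± 1.47 CPM in sh718 (log2 -0.93, adjusted p 3.33e-04).

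Genes often described as AP-1 targets were called in both directions with both hairpins. Of 22 tested, 8 were higher and 3 lower in sh718 (median log2 0.14), beside 9.56% and 10.8% of all tested genes. In sh720 4 were higher and 2 lower (median 0.09), beside 3.43% and 3.42%, and in sh718 against sh720 9 were higher and 5 lower (median 0.28), beside 12.3% and 13.0%. HBEGF, an EGF receptor ligand gene, was at 13.9 ± 1.69, 35.7 ± 5.08 and 23.1 ± 8.98 CPM in control, sh718 and sh720, higher in sh718 than in control (log2 1.34, SE 0.27, edgeR adjusted p 1.31e-04). The collagenase genes MMP13 and MMP1 fell in sh718, where JUN rose, and rose in sh720, where JUN was not called. MMP13 was at 12.6 ± 2.88, 3.74 ± 2.89 and 40.3 ± 7.95 CPM in control, sh718 and sh720 (log2 -1.77 against control for sh718, adjusted p 0.00397, and 1.66 for sh720, adjusted p 4.35e-06). MMP1 was at 14.1 ± 6.45, 4.72 ± 1.02 and 41.6 ± 8.69 CPM (log2 -1.56 for sh718, adjusted p 0.00639, and 1.56 for sh720, adjusted p 9.85e-06), and without control library 1 it was not called in sh718 (log2 -1.18, adjusted p 0.0980, against 0.00333 at the lowest over the alternatives). Around these neighbouring genes on chromosome 11, 59 other tested genes lay within 10 Mb on either side, without other MMP genes. In sh718 their median log2 was -0.38, with 18 called lower and 1 higher, beside 10.8% and 9.56% of all tested genes. In sh720 it was 0.10, with 1 called lower and 2 higher, beside 3.42% and 3.43%. In sh718 against sh720 it was -0.45, with 21 called lower and 1 higher, beside 13.0% and 12.3%. The part of that region in the MMP values was not tested. PLAU, the gene of urokinase, fell in sh720 from 334.2 ± 25.9 to 170.5 ± 13.9 CPM (log2 -0.97, adjusted p 1.48e-12) and was at 299.7 ± 15.8 in sh718.

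**Figure D5:**
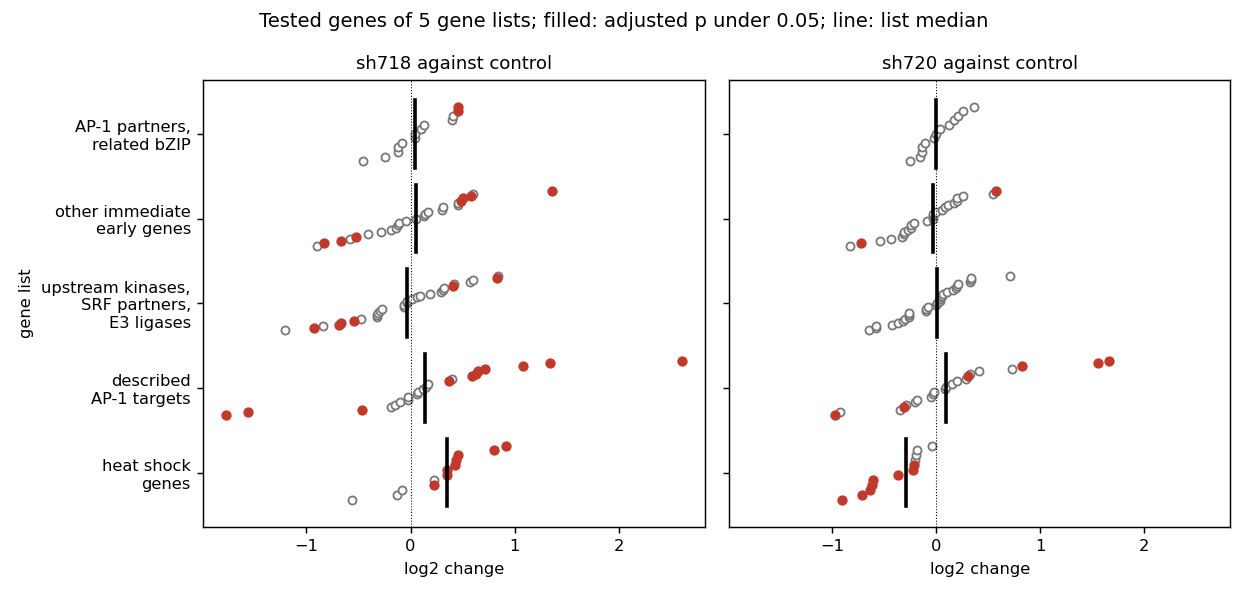
Difference of every tested gene of 5 gene lists on the log2 scale, in sh718 (left) and sh720 (right) against control, with the list median as a line. Filled points were called at an edgeR adjusted p under 0.05, with 8 of 12 heat shock genes called higher in sh718 and 8 of 12 called lower in sh720, and targets called on both sides of 0 in both panels. Of all tested genes, 9.56% were called higher in sh718 and 3.42% lower in sh720.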

How the data were processed

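The authors deposited raw counts per Ensembl gene, without normalization, in 9 columns, 3 for each of the 3 samples described. Columns were assigned to lines by their names, 1 library per column. Per the labels' protocols, single reads of 75 bp were made from total RNA. Trim Galore and GRCh38 are named, per the submitters' processing notes. The strand setting, the aligner, the annotation and the read counter were not given in the sources used here, so overlapping, antisense and near-identical genes are uncertain.

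Genes with at least 60 counts over all libraries entered edgeR 4.0.16 (R 4.3.3), with TMM scaling and the quasi-likelihood test in 1 model of the 3 lines, and adjusted by Benjamini-Hochberg over all 9556. A call is an adjusted p under 0.05, and intervals for changes are 95% intervals of that fit. Levels are TMM-scaled CPM computed here. The alternatives included DESeq2 1.42.0. The test was also run on simulated data. Positions and exon lengths came from GENCODE v29 and promoters from RefSeq, with 8 of the 10 genes matched.

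The genes and lists were chosen with earlier results of these data known. Named are all 10 genes, the 3 genes most correlated with each called one, and at most 3 called genes per list and direction, those with the largest changes, except for an item that is not reported here. No 2 libraries held the same counts.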

Additional observations from a re-analysis of the deposited data

Results flagged for a closer look

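2 results differed between the hairpins by a direct test, in which 25.3% of all tested genes were called (12.3% higher, 13.0% lower). JUN was higher in sh718 than in sh720 by 0.97 on the log2 scale, with 215.0 ± 21.3 CPM against 109.4 ± 11.2 (SD, n = 3 libraries each, edgeR adjusted p 2.39e-10). IER2 was higher in sh718 than in sh720 by 0.80, with 501.6 ± 13.3 CPM against 287.1 ± 19.2 (edgeR adjusted p 2.06e-12). In both, every sh718 library lay above every sh720 library, which held for 18.2% of all tested genes. Leaving out each library in turn gave 0.89 to 1.03 for JUN and 0.76 to 0.86 for IER2.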

How the results depend on the processing

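JUN and IER2 kept their direction and their call in sh718 under all 17 alternatives tried, at log2 1.05 to 1.18 and 0.54 to 0.66 against control. The other 5 tested genes were not called in any comparison under any of the 17, nor were JUN and IER2 in sh720 against control, where IER2 ranged from -0.27 to -0.15 (adjusted p 0.0937 to 0.473). DESeq2 called fewer genes: 1007 in sh718 against control (447 higher, 560 lower), 298 in sh720 against control (132 and 166) and 1293 in sh718 against sh720 (632 and 661), where edgeR called 1947, 655 and 2419. The cause was not tested. Leaving out 1 library gave 1506 to 1916, 466 to 706 and 1924 to 2406 calls. The library numbers shared by the lines did not pair the samples (correlations of deviations of same-numbered libraries -0.013 to 0.022). With the number as a replicate block, 1977, 680 and 2425 genes were called, and no call of the 7 tested genes changed. With 883663 to 1108960 counts per library, FOS, FOSB and EGR1 could not be tested, and JUNB, FOSL2 and IER3 rest on few counts.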

Other observations

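Of the 13 protein-coding transcripts of the mitochondrial genome, a sign of RNA quality, 1 was higher and 8 lower in sh718 than in control (median log2 -0.16), beside 9.56% and 10.8% of all tested genes, and DESeq2 called 0 higher and 5 lower. The higher one, MT-ND5 (log2 0.28, edgeR adjusted p 0.0301), was not called under 7 of 17 alternatives (adjusted p 0.0520 to 0.577). These were DESeq2, the minimum of 180 counts, and the fits without control library 1 (log2 0.20) or 2 (0.25), sh718 library 1 (0.15) or 3 (0.18), or sh720 library 1 (0.28). In sh720 against control 0 were higher and 6 lower by edgeR (median -0.16), beside 3.43% and 3.42%, and DESeq2 called 5 lower. In sh718 against sh720, where JUN and IER2 were higher, 2 were higher and 5 lower (median 0.10), beside 12.3% and 13.0%, and DESeq2 called 2 and 2.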
